A study of Mus musculus with 4 samples.

Results

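The genes examined here encode the proteins of the cytoplasmic ribosome in mouse haematopoietic stem cells. They were taken by symbol from the deposited table: a row was a member if one of its gene symbols was that of a large-subunit (Rpl, Rplp) or small-subunit (Rps, Rpsa) protein without a further suffix. The rule found 77 of 34315 rows, 46 for the large and 31 for the small subunit, on 19 chromosomes, with 14 on chromosome 7 and 4 on the X chromosome. All 77 passed the minimum mean of 10 normalised counts. In 3 rows another symbol shared the counts (Rpl30 with Gm12191, Rpl13a with Mir5121 and Snord33, and Rpl34 with its pseudogene Rpl34-ps1). For 76 of 77 members the row lay on the chromosome that RefSeq gives for the gene. The row named Rpl29 covered chromosome 1 from 43245966 to 43246603 (mm9), whereas RefSeq has Rpl29 on chromosome 9, so its values may not be those of Rpl29. Its exon length was 637 bases over a span of 638, a single block without introns. The row is kept among the 77 throughout.

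The stem cells were freshly sorted from the bone marrow of C57BL/6 mice as side population cells of the KSL (Kit+, Sca-1+, lineage-negative) CD150+ phenotype. Both genotypes, wild type and Dnmt3a knockout, are described with the same sort and with polyA-selected RNA; the sources used here do not give the age of the mice, the number pooled or the way the knockout was made. Wild type is represented by 4 libraries, which the labels call technical replicates of biological replicate 1 although the series design speaks of duplicates. The knockout arm was available as the authors' mean count per gene, log2 fold change and adjusted p-value.

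Ribosomal proteins are assembled with ribosomal RNA in the nucleolus, and cells need them in equal numbers, 1 of each in nearly every ribosome, with the stalk proteins as an exception. Their messengers start with a terminal oligopyrimidine (TOP) tract, an uninterrupted run of C and T at the cap through which mTOR signalling and the binding protein Larp1 control their translation. In the blood system, loss of 1 copy of several of these genes causes Diamond-Blackfan anaemia, a failure of red cell production, and haematopoietic stem cells are known for their low rate of protein synthesis.

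Start sites were searched for this tract. RefSeq windows (GRCm38.p6) were found for 57 of the 77 members, with 67 start sites. A run of at least 8 C or T bases that reached into the stretch from 5 bases before to 15 bases after the start was present at 25 of 67 member starts (37.3%), against 13.0% of all 32851 starts. Printed here, 5′ to 3′ on the transcript strand, are 40 bases before and 20 after the start for the 3 members with the highest and the 3 with the lowest messenger level among those with such a run, with the run in capitals. The run of Rpl4 begins 18 bases before the annotated start and ends before it, and the other 5 runs span the start. The genes were chosen among those with a run; the other 32 of the 57 members with a window had none of this length there.
Rpl4, chr9:64173347-64173406, plus strand: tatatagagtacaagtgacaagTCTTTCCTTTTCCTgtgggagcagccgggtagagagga
Rps9, chr7:3704001-3704060, plus strand: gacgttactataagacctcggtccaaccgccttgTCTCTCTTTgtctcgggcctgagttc
Rps18, chr17:33955646-33955705, minus strand: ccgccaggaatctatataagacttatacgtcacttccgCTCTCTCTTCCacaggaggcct
Rpl15, chr14:18270967-18271026, minus strand: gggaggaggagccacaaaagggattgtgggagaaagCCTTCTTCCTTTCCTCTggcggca
Rpl28, chr7:4792925-4792984, plus strand: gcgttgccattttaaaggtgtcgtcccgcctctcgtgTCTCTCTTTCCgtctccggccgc
Rps27, chr3:90213629-90213688, minus strand: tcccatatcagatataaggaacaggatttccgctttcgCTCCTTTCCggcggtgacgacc

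Other motifs were counted as letters only. From 20 bases before to 30 after the start, on the transcript strand, CTTTC occurred at 31.3% of member starts and 6.57% of all starts, and CTTCC at 29.9% and 10.4%; both can lie within the C and T run. CCGGAAG, the core of sites for ETS-family factors, occurred on either strand of the 300-base window at 37.3% of member starts and 8.86% of all starts. TATAAA occurred in the 50 bases before the start at 0 of 67 member starts and 2.63% of all starts. Among members with fewer than 100 counts per 1000000 counts and kb of exon, 6 of 17 with a window had the run, and among the others 19 of 40.

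Together the 77 genes took 3.20% of the counts in library 1, 3.20% in library 2, 4.62% in library 3 and 4.55% in library 4. Libraries 1 and 2 were taken as a pair, as were libraries 3 and 4. Each pair was averaged and counted once because most features matched within it, although most members did not match within counting error (given below). The share was 3.89% ± 0.979 (SD, n = 2 pairs). Library totals ran from 40709659 to 47408552 counts. Stem cell marker genes (9 of 9 measured, with Kit at 268 counts per 1000000 and kb) took 0.331% of library 1 and 2 counts and 0.392% of library 3 and 4 counts. Neutrophil markers held 0.113% and 0.0223%. Fewer cells of a type and less RNA per cell cannot be told apart in bulk samples. Nothing in the labels marks the pairs as separate cultures, mice or groups, and no test was run between them.

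Although ribosomes hold these proteins in equal numbers, their messenger counts spanned a wide range. Levels are given as counts per 1000000 and kb of exon (CPM per kb), so that genes of different length can be compared. The exon length is that of the deposited row, and for some members it differs from that of the main GENCODE vM21 transcript. It was 2036 against 474 bases for Rpl22, 5129 against 640 for Rps15a and 498 against 3706 for Rps20. The rank of such members depends on the length used. The median was 397.6 CPM per kb, the middle 50% of members lay between 93.3 and 1115, and the extremes were Rps27 at 11.4 and Rpl32 at 2646, a 233-fold range. Of 77 members, 21 were above 1000 and 21 under 100. The ratio of the 90th to the 10th percentile was 56.6. For 76 mitochondrial ribosomal proteins, which form an unrelated set of ribosomes, the ratio was 6.00 and the median level 25.5.

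**Figure D1:**
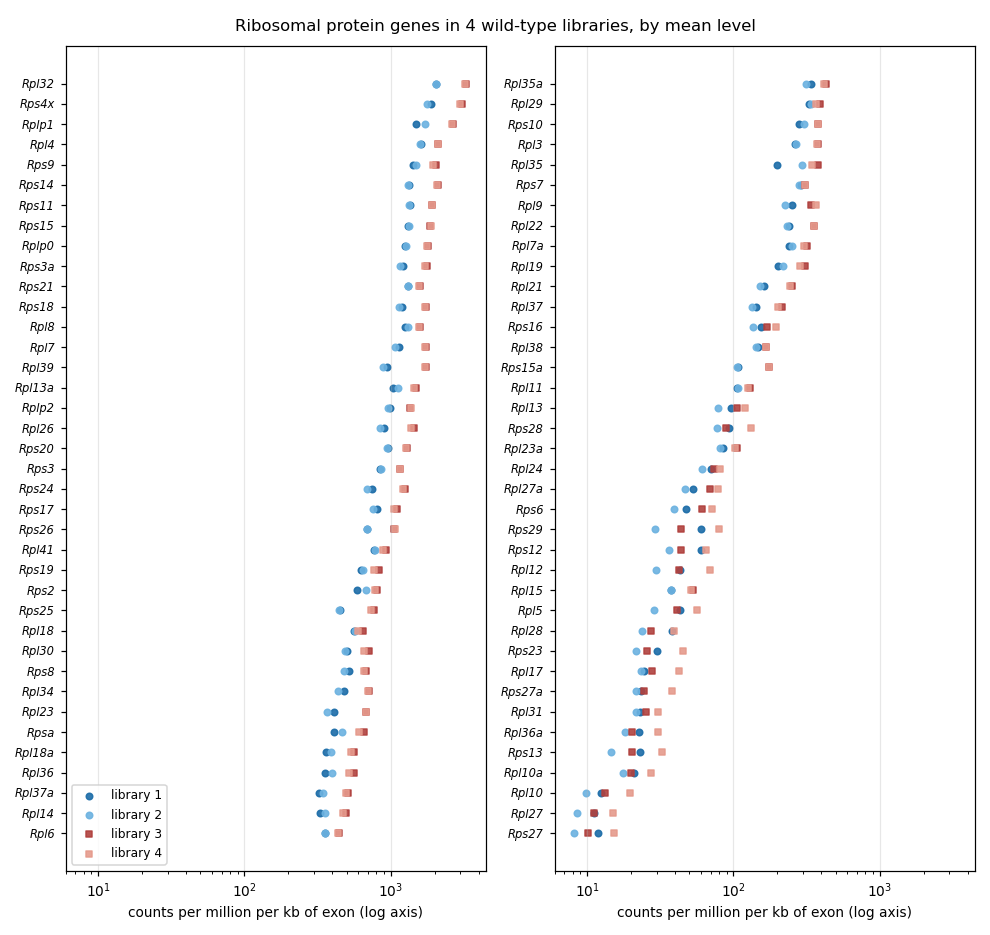
Level of 76 of the 77 genes in each of the 4 wild-type libraries (CPM per kb of exon, log axis), ordered by mean level; each point is 1 library. Levels run from 2646 for Rpl32 to 11.4 for Rps27, and the spread of the 4 points of a gene is small beside that range.

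The highest members came from both subunits. Rpl32, a large-subunit protein (chromosome 6, 115755532 to 115758761, mm9), had 2039, 2038, 3269 and 3239 CPM per kb in libraries 1 to 4, a mean of 2646 ± 860 (SD, n = 2 pairs). Rps4x, an X-linked small-subunit protein, had 1897, 1780, 3052 and 2990. Rplp1, a protein of the stalk that recruits elongation factors, had 1487, 1713, 2671 and 2619. In all 3 the values of libraries 3 and 4 lay above those of libraries 1 and 2, without overlap. Rpl4 (1854) and Rps9 (1729) were also among the highest. Neighbours in the order of these 5 genes differed by less than their SDs between pairs (355.6 to 860), which include a rise seen in every member. Within each pair the order was the same, except that Rpl4 (1602) stood just above Rplp1 (1600) in libraries 1 and 2. Cand2, which overlaps Rpl32, had a mean of 3016 counts beside 59317 for Rpl32.

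At the other end, Rps27, a zinc-finger protein of the small subunit (chromosome 3, 90016589 to 90017570, mm9), had 275, 190, 273 and 415 counts, or 11.8, 8.16, 10.1 and 15.3 CPM per kb. Rpl27 had 11.2, 8.57, 11.1 and 15.1 CPM per kb, and Rpl10, which helps to form the site of peptide bond formation, had 12.6, 9.92, 13.4 and 19.8. Library 4 was the highest and library 2 the lowest in each of these 3 genes. Rpl10a (21.5), Rps13 (22.7) and Rpl36a (22.9) followed, and the differences among these 3 were smaller than their SDs between pairs (3.09 to 5.37).

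By role, the 3 stalk proteins were all high, at 2123 for Rplp1, 1530 for Rplp0 and 1168 CPM per kb for Rplp2. Other groups held both ends of the range. Among proteins of the peptidyl transferase centre and the exit tunnel, Rpl4 (1854), Rpl8 (1431) and Rpl39 (1322) stood above Rpl3 (322), Rpl27a (62.1), Rpl17 (29.6) and Rpl10 (13.9). At the mouth of the tunnel, where nascent chains leave the ribosome, the order of levels was Rpl26 (1140), Rpl35 (305.6), Rpl22 (297), Rpl19 (255), Rpl23a (93.3) and Rpl31 (25.1). Among proteins that line the messenger channel or the decoding site, Rps9 (1729), Rps14 (1708), Rps15 (1606) and Rps3 (1011) exceeded Rps26 (881) and Rps2 (712), while Rps28 (98.3) and Rps23 (30.6) were far lower. The 5S particle proteins, which bind the p53 regulator Mdm2 when assembly fails, were both low, Rpl11 at 117 and Rpl5 at 42.6. The 16 members on a chosen list of Diamond-Blackfan anaemia genes, which need not be complete, had a median of 208, with Rpl26 highest and Rps27 lowest. The median was 712 over the 31 small-subunit and 314 over the 46 large-subunit genes.

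Ribosomal protein genes have many processed pseudogenes, copies of the messenger inserted elsewhere in the genome, and reads from the shared sequence can be placed at more than 1 locus. The sources used here do not say how the authors treated such reads. In GENCODE vM21, a median of 36.8% of the 100-base words of a member's main transcript also occurred in a transcript of another gene, and 30 of 77 members shared at least 50%. With 50-base words the median was 50.7%, against 0 for mitochondrial ribosomal proteins and 0 for all protein-coding genes; 50.6% of members and 8.47% of all protein-coding genes shared at least 50%.

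Members with low levels shared more of their sequence. The 21 members under 100 CPM per kb shared a median of 69.1% of 100-base words, and 13 of them at least 50%; the other 56 shared a median of 30.3%, and 17 at least 50%. Across the 77 genes, which share libraries and are not replicates, Spearman's rho between level and shared sequence was -0.63 with 100-base words. With 50-base words it was -0.43. At the extremes, Rps27 shared 98.4% and Rpl10 91.6% of 100-base words, while Rpl32 shared 0 of these but 28.4% of 50-base words. Some genes departed from this order. Rpl9 (87.0% shared, level 297) and Rpl3 (79.4%, level 322) were not among the low members. Rps29 (24.7%, level 53.2), Rpl31 (29.4%) and Rpl28 (31.3%, level 32.1) were low with a share under the members' median of 36.8%. They still shared 35.8%, 32.9% and 34.5% of 50-base words, where the median of all protein-coding genes was 0. For Rpl28 the transcript searched has 1106 bases and the counted row 491. The 47 members sharing under 50% of 100-base words had a median level of 599 CPM per kb and a 90th to 10th percentile ratio of 35.3, still above that of the mitochondrial set. The table also has 124 rows with a ribosomal protein pseudogene symbol (-ps), which together held 0.0361% of the counts. Copies under other symbols are not in that sum, and neither is the chromosome 1 row named Rpl29 (mean of 10033 counts). The part of read placement in these levels was not tested.

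**Figure D2:**
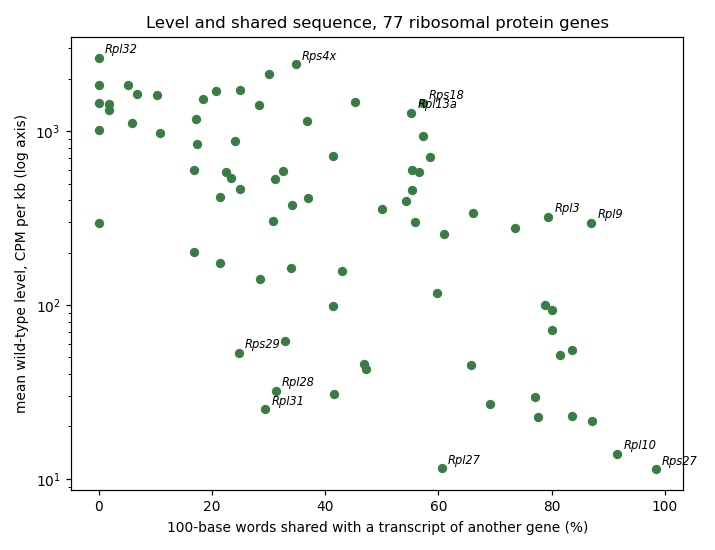
Mean wild-type level (CPM per kb, log axis) against the percentage of a transcript's 100-base words that also occur in a transcript of another gene, 1 point per gene. Low levels are more frequent to the right, where Rps27 has 98.4% and a level of 11.4, while Rps29 and Rpl28 are low on the left.

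The pairs did not match for every member. The middle 50% of log2 ratios had a width of 0.160 between libraries 2 and 1 and 0.221 between libraries 4 and 3 over the 77 members; over 11252 other features of at least the lowest member's mean count it was 0.0784 and 0.0693. A group of members was lower in library 2 than in library 1 and higher in library 4 than in library 3. Past a log2 step of 0.3 both ways there were 11 of 77 members (14.3%) and 9 of 11252 other features of at least the same mean count (0.0800%). They were Rps29, Rps12, Rpl12, Rpl5, Rpl28, Rps23, Rpl36a, Rps13, Rpl10, Rpl27 and Rps27, all under 100 CPM per kb. The step was set after these values were seen, and the 9 other features included the TOP messenger Fau, a small-subunit protein made as a fusion, as well as Ppia, Rpsa-ps11 and Rps10-ps1.

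Rps29, a zinc-binding small-subunit protein, had 943, 462, 807 and 1460 counts in libraries 1 to 4. The CPM ratio of library 2 to library 1 was 0.489 (exact 95% interval 0.436 to 0.547) and that of library 4 to library 3 was 1.81 (1.66 to 1.98). Library 2 was the lowest and library 4 the highest, and the ranges of the pairs overlapped. Rps12 had 1258, 756, 1074 and 1571 counts, with ratios of 0.600 (0.547 to 0.657) and 1.46 (1.35 to 1.58). Rps23, which sits at the decoding site, had 676, 484, 668 and 1183, with ratios of 0.714 (0.634 to 0.804) and 1.77 (1.61 to 1.95). Rpl35 moved the other way, with 3639, 5429, 8076 and 7334 counts and ratios of 1.49 (1.43 to 1.55) and 0.909 (0.881 to 0.938). For contrast, the ratios of Rpl4 were 0.993 (0.984 to 1.00) and 1.00 (0.996 to 1.01). Such intervals hold for counting error alone, because reads copied by PCR do not count separate molecules.

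**Figure D3:**
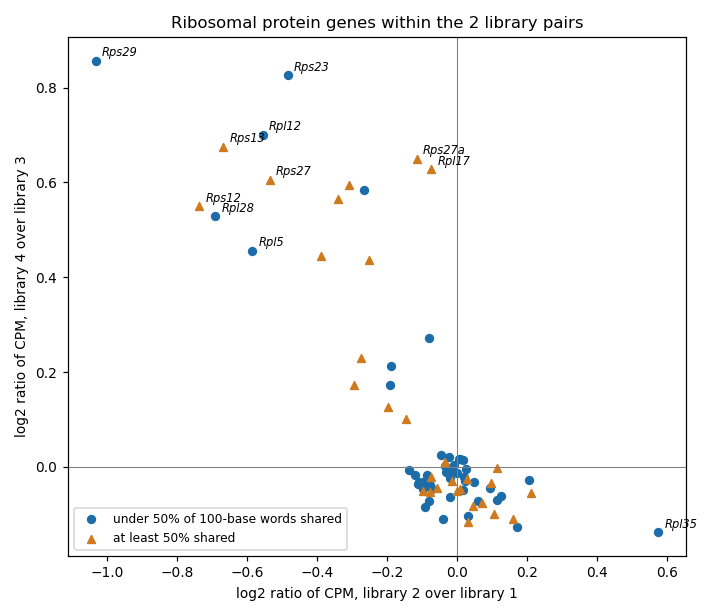
Log2 ratio of CPM between library 4 and library 3 (vertical) against that between library 2 and library 1 (horizontal), 1 point per gene; triangles share at least 50% of their 100-base words with another gene and circles less. Members of low level spread towards the upper left, with Rps29 at -1.03 and 0.86, and Rpl35 stands apart on the right at 0.57.

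Libraries 3 and 4 had more ribosomal protein messenger than libraries 1 and 2 in every member. On size-factor-normalised counts, all 77 had a higher mean in libraries 3 and 4, as they did on total counts and with TMM scaling, with a median log2 difference of 0.55 and a range of 0.17 to 0.99. In 70 of 77 both libraries of the second pair exceeded both of the first; of 17661 features tested, 42.3% did so, and a further 39.7% showed the opposite, which no member did. The 7 members whose ranges overlapped were Rps29, Rps12, Rpl28, Rps23, Rpl36a, Rps13 and Rps27, all in the group that differed within pairs. Other features of at least the lowest member's mean count had a median of 0.05, with 55.9% above 0.

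The largest difference was that of Rpl39, a small basic protein of the exit tunnel, with 14973, 14133, 32264 and 31846 counts and a log2 difference of 0.99. Rpl23 (17521, 15953, 34252 and 34054 counts) had 0.88, Rps24 0.85 and Rps25 0.80. The smallest differences were those of Rpl28 (0.17), Rps7 (0.18), Rpl18 (0.21) and Rps12 (0.24). Rps7 had 11264, 11015, 13983 and 14072 counts, so that its pairs differed little but did not overlap. The median was 0.56 for the large and 0.54 for the small subunit, and role groups ranged from 0.41 for the 5S particle proteins to 0.62 for the peptidyl transferase centre and tunnel.

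Messengers that share the TOP tract showed a like difference. Of 16 other TOP messengers measured, 16 were higher in libraries 3 and 4, with a median of 0.53, from Nap1l1 at 0.11 to the elongation factor Eef1a1 at 0.78. Noncoding hosts of small nucleolar RNAs went the other way in 11 of 11 cases, with a median of -0.74; several of these also begin with a TOP tract. Gas5 had 9896, 9268, 3849 and 4100 counts (-1.42). Mitochondrial ribosomal proteins had a median of 0.17, with 56 of 76 higher. Ribosome assembly factors had a median of -0.03 (35 of 72 higher), RNA polymerase I and its factors -0.13 (7 of 16) and the mTOR and TOP control genes -0.15 (5 of 15). These are counts and medians of the lists, without a test. Markers of cell types also differed between the pairs. Stem cell markers had a median of 0.46, with 8 of 9 higher in libraries 3 and 4 (Ly6a 0.92, Procr 0.72), and stromal and endothelial markers 0.56, with 4 of 4 higher. Erythroid markers had a median of -0.21 (2 of 6 higher), megakaryocyte markers -0.01 (1 of 3) and lymphoid markers -1.04 (1 of 4). The lymphoid markers stood at only 0.0849 to 0.473 CPM per kb and ran from Rag1 at -1.50 to Il7r at 2.05. Their summed share went the other way, from 0.000272% in libraries 1 and 2 to 0.000365% in libraries 3 and 4. The neutrophil markers had a median of -2.92, with 0 of 7 higher in libraries 3 and 4, and their summed share ran from 0.113% in libraries 1 and 2 to 0.0223% in libraries 3 and 4. The part of these markers in the ribosomal protein result was not tested.

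**Figure D4:**
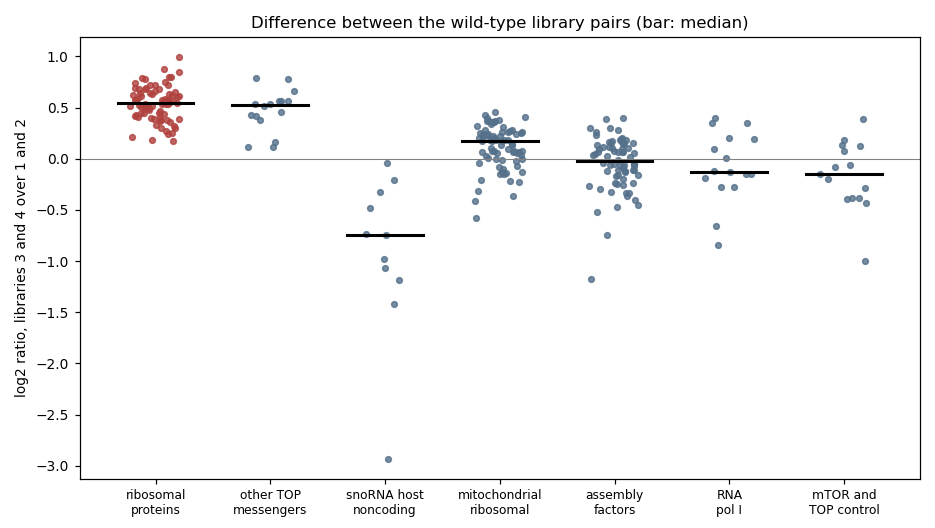
Log2 ratio of mean normalised counts, libraries 3 and 4 over libraries 1 and 2, for the ribosomal protein genes and 6 other lists; each point is a gene and bars are medians. Ribosomal proteins (median 0.55) and other TOP messengers (0.53) lie above 0, and noncoding snoRNA hosts (-0.74) below it.

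The arm labelled Dnmt3a knockout addresses whether loss of this de novo DNA methyltransferase alters the stem cell messengers. Dnmt3a itself had 7824, 8186, 5661 and 5546 counts in wild type and a mean of 6389.75 in the knockout arm of the authors' deposited table (log2 fold change 0.30, adjusted p 0.952), so whole-gene counts do not check the label. In the authors' deposited table, 0 of 77 ribosomal protein genes were called at an adjusted p under 0.05, where 6.84% of 21778 tested features were called, 3.15% higher and 3.7% lower. The members' adjusted p-values ranged from 0.818 to 1 in the authors' deposited table, whose unadjusted values were not at hand. Such p-values measure the spread between libraries, which may be technical.

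The sign of the members' typical fold change depended on the scale. Their median lay above that of all tested features on each. The scales differ by nearly the same shift for every feature, so these are not separate results. Of 77 fold changes in the authors' deposited table, 67 were above 0, with a median of 0.31 and the middle 50% from 0.16 to 0.40, while all tested features had a median of -0.10. On the CPM scale, from the mean counts of the authors' deposited table, the members' median was -0.02 with 31 above 0, and all features had -0.43. With size factors for the wild-type counts only, these were -0.09, 19 and -0.49. The knockout mean has no size factor there, so these values do not compare arms normalised alike. The members' share of counts was 3.85% for the knockout mean in the authors' deposited table, between the 3.20% of libraries 1 and 2 and the 4.58% of libraries 3 and 4. Their level there lay between those of the wild-type pairs for 57 members, above both for 2 (Rpl21 and Rps27) and below both for 18. With libraries 1 and 2 alone as the wild type, on the scale of the authors' deposited table, the median was 0.58, and with libraries 3 and 4 alone it was 0.07.

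Fold changes of the members lay close together in the authors' deposited table. The width of the middle 50% there was 0.235, against 1.20 for the 11252 other features of at least the lowest member's mean count. Those features had a median level of 16.5 CPM per kb, against 398 for the members, so the sets are not matched in level. Rps3a, a small-subunit protein, stood away from the rest among highly counted members. It had 46269, 44078, 79359 and 76763 counts in wild type and a mean of 31567 in the knockout arm of the authors' deposited table. The knockout mean was thus under all 4 wild-type counts, and the authors' deposited table gave it a log2 fold change of -0.54 (adjusted p 0.874). Rpl15, a large-subunit protein mutated in some families with Diamond-Blackfan anaemia, had 2824, 2829, 4657 and 4494 counts in wild type and a mean of 1838 in the authors' deposited table (log2 fold change -0.59, adjusted p 0.855). On the CPM scale, from the authors' deposited table, the knockout mean was 54.6% of the wild-type mean for Rps3a and 52.8% for Rpl15. Neither passed the test. Rps3a shared 45.3% and Rpl15 65.8% of 100-base words with transcripts of other genes, and the part of read placement in these values was not tested.

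Other negative fold changes in the authors' deposited table were smaller and came from low members: Rpl36a had -0.36 (adjusted p 0.937) and Rps29 -0.27 (0.960). Of the 10 negative members of the authors' deposited table, 9 had a level under 100 CPM per kb. The largest positive fold changes in the authors' deposited table were those of Rps27 (0.68, adjusted p 0.818), Rpl21 (0.65, 0.830), Rpl36 (0.54, 0.875) and Rpl37 (0.52, 0.882). Rpl21, a large-subunit protein, had 12244, 11464, 22001 and 21296 counts and a knockout mean of 19623 in the authors' deposited table. That mean lies between the wild-type pairs as a count and above both after division by library totals.

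**Figure D5:**
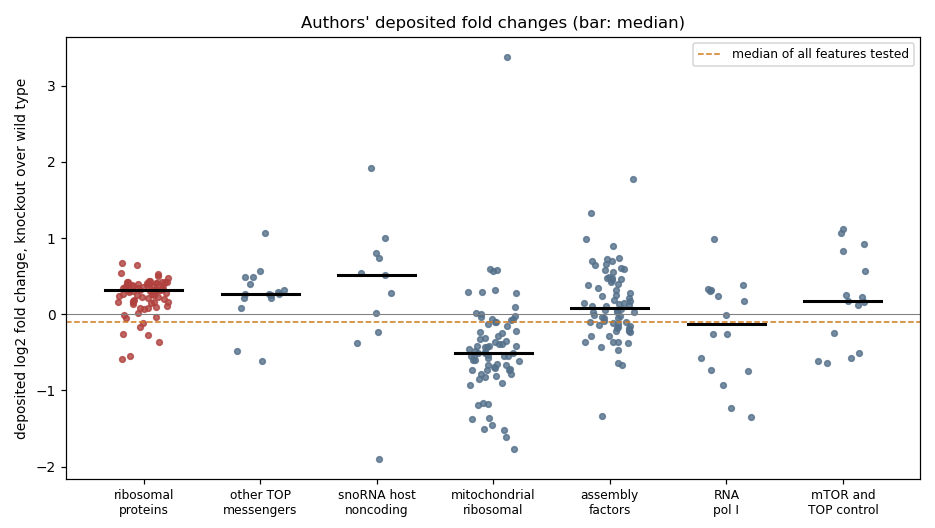
Authors' deposited log2 fold changes, knockout over wild type, for the ribosomal protein genes and 6 other lists; each point is a gene, bars are medians, and the line is the median of all tested features (-0.10). Ribosomal proteins cluster about 0.31, with Rpl15 (-0.59) and Rps3a (-0.54) below the rest.

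Genes of the same pathway gave 1 call in the authors' deposited table among 6 lists, where 6.84% of all tested features were called. A count of 0 in a list of 11 to 16 genes is near that share. Of 76 mitochondrial ribosomal protein rows, 1 was called higher there, the row shared by Mrps6 and the transporter gene Slc5a3 (log2 fold change 3.37, adjusted p 0.00513 in the authors' deposited table), and 0 lower; the median was -0.50, with 11 above 0. The authors' deposited table called 0 of 16 genes of RNA polymerase I and its factors (median -0.13), 0 of 72 assembly factors (0.09) and 0 of 15 mTOR and TOP control genes (0.17). It also called 0 of 16 other TOP messengers (median 0.26) and 0 of 11 noncoding snoRNA hosts (0.52) in the authors' deposited table. Uncalled values in the authors' deposited table included the snoRNA hosts Snhg8 (1.92, adjusted p 0.178) and Snhg11 (-1.89, 0.338). They also included, in the authors' deposited table, the mitochondrial ribosomal proteins Mrpl14 (-1.76, adjusted p 0.242) and Mrpl27 (-1.61, 0.310) and the assembly gene Nol10 (1.78, 0.233). These values did not pass the test. Among cell type markers in the authors' deposited table, 3 of 6 erythroid, 2 of 3 megakaryocyte, 2 of 4 lymphoid and 1 of 4 stromal and endothelial genes were called lower. Of all tested features there, 3.7% were. The lymphoid markers had a median level of only 0.276 CPM per kb and the stromal and endothelial markers 1.22. In the authors' deposited table, 0 of 9 stem cell and 0 of 7 neutrophil genes were called. The part of these markers in the ribosomal protein values was not tested.

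A few proteins of the cytoplasmic ribosome have symbols outside the rule. Gnb2l1 (Rack1), a small-subunit scaffold, had 66194, 66648, 107579 and 108684 counts and 1570 CPM per kb. Fau had 681, 536, 655 and 871 counts (19.1 CPM per kb). Fold changes in the authors' deposited table were 0.39 for Gnb2l1 and 0.31 for Fau, and neither was called. Of the paralogues, Rpl22l1 (243 CPM per kb), Rpl36al (125) and Rps27l (116) were detected well, Rpl7l1 stood at 63.6, and Rpl39l at 0.443. Rpl10l, a testis paralogue, had 0 counts in each of the 4 libraries, which allows up to 0.0737 CPM. Rps4y2 had 339, 375, 404 and 383 counts and was called lower in the authors' deposited table, with a mean of 1 in the knockout arm (log2 fold change -7.29, adjusted p 1.07e-07). Its row lies within Tmtc1, a gene on the opposite strand that had 55, 50, 118 and 103 counts.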

How the data were processed

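Whole-number read counts per gene were deposited by the authors for each of the 4 wild-type libraries, with mm9 coordinates; mm9 and DESeq are named in the submitters' processing notes, while the aligner, the annotation and the placement of repeated reads are not stated in those sources. The signal deposited by the authors under an FPKM heading is the count over exon length in kb, further divided by 50 in every library, and was used only for exon lengths. The log2 fold change, the p-value (read as adjusted) and the mean count of the knockout arm are the authors' deposited values. Where only the wild-type counts are divided by size factors, the deposited log2 fold change is higher by a median of 0.399 (SD 0.0440, 8332 features). Because the kit named in the labels keeps no strand, overlapping genes on opposite strands share reads. Of the 30 columns, 8 with per-library values of no sample here were not used.

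Levels are counts per 1000000 and kb of exon. Differences between pairs use median-of-ratios size factors (0.951, 0.955, 1.048 and 1.065) and a minimum mean of 10 normalised counts. Library depths were 40709659 to 47408552 counts; a count of 0 allows up to 3 counts, or 0.0737 CPM. No test between groups was run: the pairs are not labelled groups and only the mean of the knockout arm was used. Shared sequence is the share of 36-, 50- or 100-base words of the principal GENCODE vM21 transcript found in a transcript of another gene, on the same strand. The pairs rest on per-gene chi-square tests of counts over all features. TMM (edgeR 4.0.16 in R 4.3.3) served as an alternative; other steps used Python 3.11.15 with pandas 2.3.3 and scipy 1.17.1, and the scripts were tested on simulated data.

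The members, gene lists and settings were chosen with earlier results of these data known. Genes named are the 6 highest and 6 lowest members by level, the 4 largest fold changes and 4 largest pair differences in each direction, every member of role groups of up to 9, rows with more than 1 symbol, and up to 3 genes per other list with the largest fold changes. Others (Rpl9, Rpl12, Rps18, Cand2, Nap1l1, Eef1a1, Kit, Tmtc1 and the features listed beside Fau) were chosen after their values were seen. Some genes that this rule names are not reported here.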

Additional observations from a re-analysis of the deposited data

Results flagged for a closer look

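Among the 77 ribosomal protein genes, 1 had a wild-type library far from the other 3 by Dixon's ratio. Rps27a, a ubiquitin fusion that yields a small-subunit protein, had 23.5, 21.7 and 24.4 CPM per kb in libraries 1 to 3 and 38.2 in library 4 (ratio 0.840). Chance alone places about 1 in 20 groups past this limit, and 1 of 77 is below that rate. The ratio also treats the 4 libraries as 1 group, although they fell into pairs. Rps27a is 1 of the 20 members that were lower in library 2 than library 1 and higher in library 4 than library 3 by a log2 step of at least 0.1. Of 11252 other features of at least the lowest member's mean count, 132 (1.17%) passed the same step both ways.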

How the results depend on the processing

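Leaving out each replicate in turn gave a share of counts of 3.65% to 4.12%, a median level of 382 to 412 CPM per kb, a 90th to 10th percentile ratio of 52.0 (without replicate 3) to 62.1 (without replicate 4), a pair difference of 0.52 to 0.57, a median fold change of 0.22 to 0.40 and 75 to 77 members higher in libraries 3 and 4. The share was 12.2% of length-scaled signal. The ratio was 58.5 over rows with 1 symbol. Over members sharing under 50% of 100-base words, a choice made after seeing the data, the median level was 599, the ratio 35.3 and the pair difference 0.59. With total counts the pair difference was 0.48. The median fold change turned to -0.0174 on total counts and to -0.0851 with size factors applied to the wild-type counts only. The knockout mean has no size factor in the latter, so that value does not compare arms normalised alike. The count of 0 called members held at adjusted p under 0.1 and 0.01. TMM and the count minimum moved no value past the spread between pairs. No paired analysis was possible because per-library knockout values were not used here: no sample in the labels at hand matches those columns. Counting intervals were widest for the lowest members.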
